A study of Mus musculus with 2 samples.

Results

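Chemokine-rich basophils were cells of mouse bone marrow that carried basophil transcripts and held at least as many molecules of the secreted factors Ccl3, Ccl4 and Osm as of the granule proteases Prss34 and Cpa3. The series holds 1 single-cell library from male wild type C57B/6 mice on normal chow (ND) and 1 from male wild type C57B/6 mice on a high fat diet of 60% fat (HFD), each diet lasting 16 weeks. The mice are described as young, and neither the number of animals in a library nor any sorting of the marrow is given. Transcripts were counted as unique molecular identifiers (UMIs), each standing for 1 captured RNA molecule. With 1 library per diet there is no replicate and no test: intervals cover counting error, at 95%, and a difference between the libraries cannot be told apart from a difference between the animals or preparations behind them.

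The cells were chosen by their own measured transcripts. Cells were kept from 200 detected genes upward where mitochondrial transcripts made up no more than 25% of their UMIs. Of the 29952 cells kept, those with at least 3 of the 7 genes Mcpt8, Prss34, Cpa3, Ms4a2, Fcer1a, Cd200r3 and Cyp11a1 formed a basophil gate, and 1333 of them met the chemokine condition, 705 in the ND library and 628 in the HFD library. The other 2502 gate cells, 1180 ND and 1322 HFD, held more protease than chemokine UMIs and are called protease-rich. Values of the genes that chose the cells are therefore given as description, as is every transcript difference between the chemokine-rich and protease-rich cells.

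Basophils are rare granulocytes that mature in the marrow under the transcription factor Gata2 and the growth factor interleukin 3. They carry the high-affinity IgE receptor, whose alpha chain is Fcer1a and whose beta chain is Ms4a2, and store proteases such as Mcpt8 and Prss34 in granules. Once stimulated they release histamine, made by Hdc, and secrete cytokines including interleukin 4. Ccl3 and Ccl4 are chemokines that attract leukocytes, Osm (oncostatin M) is a cytokine of the interleukin 6 family, and Csf1 is the growth factor of macrophages.

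Promoters of genes that define these cells, or that differed between the diets below, are shown as the 250 bases before the annotated start in RefSeq, build GRCm38.p6, on the gene's strand. Ms4a2 (chr19:11623720-11623969, minus strand) and Cd200r3 (chr16:44943428-44943677, plus strand) represent the genes of the gate, with matches to the GATA motif AGATAA on either strand in capitals. Dusp5 (chr19:53528895-53529144, plus strand) represents the immediate early genes, with matches to the CArG box of serum response factor in capitals. Isg15 (chr4:156200819-156201068, minus strand) and Ifit1 (chr19:34640639-34640888, plus strand) represent the interferon-induced genes, with matches to the interferon-stimulated response element (ISRE), searched as GAAA, any 2 bases and GAAA on either strand, in capitals.
Ms4a2: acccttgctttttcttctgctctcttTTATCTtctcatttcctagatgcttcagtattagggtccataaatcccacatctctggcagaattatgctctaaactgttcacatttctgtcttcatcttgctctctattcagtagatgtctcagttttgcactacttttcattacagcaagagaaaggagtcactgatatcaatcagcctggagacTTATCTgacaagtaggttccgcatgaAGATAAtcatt
Cd200r3: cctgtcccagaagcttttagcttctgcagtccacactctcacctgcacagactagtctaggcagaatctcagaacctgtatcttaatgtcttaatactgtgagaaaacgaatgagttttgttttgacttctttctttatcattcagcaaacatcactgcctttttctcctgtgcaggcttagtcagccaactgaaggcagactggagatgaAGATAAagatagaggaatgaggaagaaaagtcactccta
Dusp5: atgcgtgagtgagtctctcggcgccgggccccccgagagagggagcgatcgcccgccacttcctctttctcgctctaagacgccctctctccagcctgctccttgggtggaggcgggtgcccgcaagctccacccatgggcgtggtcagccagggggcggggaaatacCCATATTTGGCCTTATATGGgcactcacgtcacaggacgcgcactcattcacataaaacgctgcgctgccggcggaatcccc
Isg15: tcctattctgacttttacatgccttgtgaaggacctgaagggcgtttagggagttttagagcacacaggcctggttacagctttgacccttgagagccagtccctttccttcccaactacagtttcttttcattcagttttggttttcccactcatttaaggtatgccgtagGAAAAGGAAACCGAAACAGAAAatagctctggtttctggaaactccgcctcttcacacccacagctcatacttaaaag
Ifit1: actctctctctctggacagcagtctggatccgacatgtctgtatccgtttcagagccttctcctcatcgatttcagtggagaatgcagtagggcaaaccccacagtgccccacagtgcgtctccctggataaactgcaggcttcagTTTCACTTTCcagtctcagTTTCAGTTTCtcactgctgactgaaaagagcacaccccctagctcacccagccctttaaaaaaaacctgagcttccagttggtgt

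Ms4a2 has 3 GATA matches, at 224, 37 and 11 bases before its start, and Cd200r3 has 1, at 39 bases. Of the 7 gate genes 5 have a match in this window (71.4%), namely Cd200r3, Cpa3, Fcer1a, Ms4a2 and Prss34, beside 10.2% of all 27025 gene windows. Dusp5 carries 2 adjoining CArG boxes at 82 and 72 bases, and the motif occurs in 2 of 27 immediate early genes with a window (7.41%), Dusp5 and Zfp36, beside 1.38% of all windows. Isg15 holds 3 overlapping ISRE matches at 78, 72 and 66 bases and Ifit1 holds 2 at 104 and 85 bases. The ISRE occurs in 13 of 24 interferon-induced genes (54.2%) beside 3.05% of all windows. These matches describe letters only, and factor binding was not measured.

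The gate fixed the level of its own genes, so levels of Gata2 and Hdc, which it did not use, are given as well. Of a list of 25 basophil genes beyond the gate, 23 reached 20 UMIs over both libraries. Gata2 and Hdc reached 3251 and 1236 CPM (UMIs of the gene, summed over cells and scaled to 1000000 UMIs) in ND and 2705 and 1206 CPM in HFD. Their levels outside the gate are not given here, so these values alone do not settle the label. As description of the gate, Cd200r3, an activating receptor of the CD200 receptor family, stood at 1185 CPM in the ND cells and 1187 CPM in the HFD cells, beside 0.86 and 0.78 CPM in cells outside the gate. Cyp11a1, the enzyme that starts steroid synthesis from cholesterol, stood at 569 and 544 CPM. All 7 gate genes were detected in 238 ND cells and 224 HFD cells, and 44 and 40 cells had the minimum of 3. Of the 6 markers that defined the mast cell class 1 had any UMI, at 8.1 CPM in both libraries, and 0 cells carried 3 of them. Of a wider list of 19 mast cell genes, 4 reached 20 UMIs over both libraries, among them Kit at 28.6 and 34.4 CPM, Gzmb at 41.8 and 12.7 CPM and the serotonin transporter Slc6a4 at 81.6 and 59.5 CPM.

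Transcripts from some lists of other cell classes were common in the chosen cells. The neutrophil list had a UMI in 96.2% of ND and 96.5% of HFD cells, and the monocyte list in 82.6% and 84.9%. The B cell list had a UMI in 4.54% and 6.85%. Whether basophils make these transcripts themselves was not tested, so the measure used next may count basophil transcripts as those of another class. In a minority of cells the UMIs of such a list exceeded those of the gate genes. In 91 ND cells (12.9%) and 93 HFD cells (14.8%), the UMIs of at least 1 other cell class list exceeded those of the 7 gate genes. These cells held 30.1% and 33.7% of all UMIs of the chemokine-rich basophils, with median depths of 5190 and 4279 UMIs against 2778.5 and 2798 in the rest. The neutrophil list was over in 42 ND and 53 HFD cells, the monocyte list in 23 and 27, the conventional dendritic cell list in 21 and 20, and the eosinophil list in 4 and 6. The doublet caller Scrublet marked 37 and 23 of these cells, of 50 and 30 marked among the chemokine-rich basophils. The summed eosinophil list was 682 CPM in ND and 3330 CPM in HFD with these cells, and 102 and 126 CPM without them. For diet results, values without them are over the other 614 ND and 535 HFD cells. Of the protease-rich cells, 259 in ND (21.9%) and 363 in HFD (27.5%) were rich in another class by the same measure. Values for protease-rich cells include these cells unless stated. Over all chemokine-rich basophils, 17 ND and 7 HFD cells had a cell index that occurs in both libraries, among 329 such indices in all.

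The chemokine-rich cells separated from the protease-rich cells along both axes of the rule. A chemokine-rich cell held a median of 46 UMIs of Ccl3, Ccl4 and Osm in ND (10th to 90th percentile 15 to 83.6) and 43 in HFD (14 to 82), with a median of 4 protease UMIs in each library. A protease-rich cell held 7 and 5 chemokine UMIs and 259.5 and 227 protease UMIs. Chemokine UMIs were more than 2 times the protease UMIs in 86.7% of ND and 82.3% of HFD chemokine-rich cells, and 83 and 53 cells had no protease UMI. Just inside the condition, by 0 to 5 UMIs, lay 52 ND cells with medians of 8.5 chemokine and 5.5 protease UMIs and Cd200r3 at 919 CPM. Just outside it, by 1 to 5 UMIs, lay 113 ND cells with medians of 0 chemokine and 3 protease UMIs and Cd200r3 at 76.2 CPM. The same margins held 54 and 170 HFD cells, with Cd200r3 at 379 and 60.5 CPM. Median depths inside and outside were 3141 and 9006 UMIs in ND and 2597.5 and 7051 in HFD. Mcpt8 stood at 1914 and 353 CPM in ND and 1037 and 266 CPM in HFD. Over all protease-rich cells Mcpt8 was at 17833 and 17443 CPM. The cells just outside were thus not typical protease-rich cells, and the Cd200r3 step does not describe those. The 2 kinds of cell also differed in depth, with medians of 2822 ND and 2828 HFD UMIs in the chemokine-rich cells and 8505 and 8124 in the protease-rich cells.

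**Figure D1:**
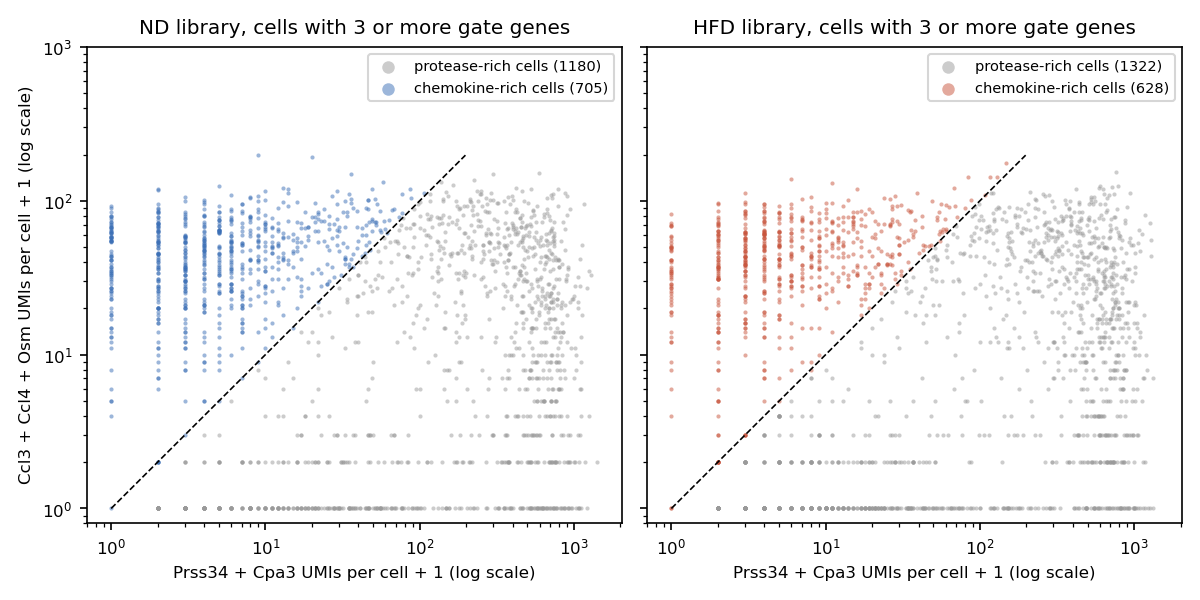
Each point is 1 cell of the basophil gate, with its UMIs of Prss34 and Cpa3 plus 1 on the horizontal log axis and its UMIs of Ccl3, Ccl4 and Osm plus 1 on the vertical log axis, in the ND (left) and HFD (right) libraries. Coloured points are the 705 and 628 chemokine-rich basophils on or above the dashed line of equality, and grey points are the 1180 and 1322 protease-rich cells below it.

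Each of the 4 secreted factors was detected in most of these cells, and the rule used 3 of them. Ccl3 was found in 98.9% of ND and 98.7% of HFD cells, with medians of 23 and 25 UMIs per cell, beside 2.53% and 2.63% of cells in a B cell marker gate whose median depths were 2529 and 2475.5 UMIs. Ccl4 was found in 90.4% and 91.2%, with a median of 15 UMIs in both, and Csf1 in 92.9% and 93.2%, with medians of 4 and 5. Osm was found in 86.4% of ND cells (interval 83.6 to 88.8) and 80.1% of HFD cells (76.8 to 83.2). All 4 were present in 519 ND cells (73.6%) and 454 HFD cells (72.3%). Among cells thinned to 1000 UMIs each, and without those rich in another class, Ccl3 and Ccl4 had Spearman coefficients of 0.38 in ND and 0.43 in HFD, and Ccl3 and Osm 0.13 and 0.12. Csf1 had coefficients near 0 with the other 3: 0.05 and 0.06 with Ccl3, -0.03 and 0.03 with Ccl4, and -0.01 and 0.04 with Osm. These coefficients describe 609 ND and 524 HFD cells that share a library.

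The chemokine-rich basophils made up 4.93% of kept ND cells and 4.01% of kept HFD cells, and held a far larger part of these transcripts. Sorting of the marrow is not given, so these are shares of the kept cells and not of the marrow. Of the UMIs of all kept cells, the chemokine-rich basophils held 48.5% of Ccl3 in ND and 45.2% in HFD, and 58.1% and 54.3% of Ccl4. For Osm the shares were 40.6% and 31.1%, and for Csf1 38.8% and 36.0%. Protease-rich cells, 8.25% and 8.45% of kept cells, held 45.1% and 47.5% of Ccl3 and 32.3% and 36.7% of Ccl4. They held 33.3% and 30.1% of Osm and 52.2% and 54.5% of Csf1. Their part was thus the larger for Csf1 in both libraries and for Ccl3 in HFD. Natural killer cells, the next population after the basophil gate for Ccl3 and Ccl4, reached 111 and 104 CPM of Ccl3 and 207 and 181 CPM of Ccl4, against 6897 and 6952 CPM and 4633 and 4473 CPM here. Outside the gate neutrophils were next for Osm, at 67.6 and 56.7 CPM against 1630 and 1022 CPM. For Csf1 eosinophils were next outside the gate, at 35.8 and 26.6 CPM against 1378 and 1413 CPM. Protease-rich cells stood at 402 and 393 CPM of Csf1. These other populations are marker gates that can share cells with each other.

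Several other secreted factors, which the rule did not name, also had their highest CPM in these cells, and a few did not. Ccl6 and Ccl9, ligands of the receptor Ccr1, stood at 4893 and 3740 CPM in ND and 5184 and 2913 CPM in HFD. Hgf, hepatocyte growth factor, was at 413 and 391 CPM and detected in 67.9% and 67.7% of cells. Il6 stood at 181 and 129 CPM and was found in 33.3% and 28.0% of cells, beside 32.3% and 29.8% of the deeper protease-rich cells. Il4 stood at 93.6 and 73.5 CPM and was found in 28.2% and 22.8% of cells, beside 25.4% and 19.5% of protease-rich cells and 0.0744% and 0.239% of the B cell marker gate. In mean UMIs per cell, Ccl6 had 17.9 and 19.4 beside 2.67 and 3.23 in protease-rich cells, and Ccl9 13.7 and 10.9 beside 5.6 and 4.86. The means were closer for Hgf, at 1.51 and 1.47 beside 1.41 and 1.27, and Il4, at 0.343 and 0.275 beside 0.324 and 0.237. Il6 had 0.664 and 0.482 beside 0.607 and 0.557. The part of depth in the CPM of these factors was not tested. Cxcl2, a chemokine for neutrophils, was lower here than in neutrophils, at 18.2 and 5.1 CPM beside 40.4 and 33.4 CPM. Tnf stood at 15.1 and 5.9 CPM, beside 26.5 CPM in ND eosinophils and 20.2 CPM in HFD neutrophils. Vegfa stood at 5.0 and 15.7 CPM, beside 43.6 CPM in ND neutrophils and 44.3 CPM in HFD eosinophils.

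**Figure D2:**
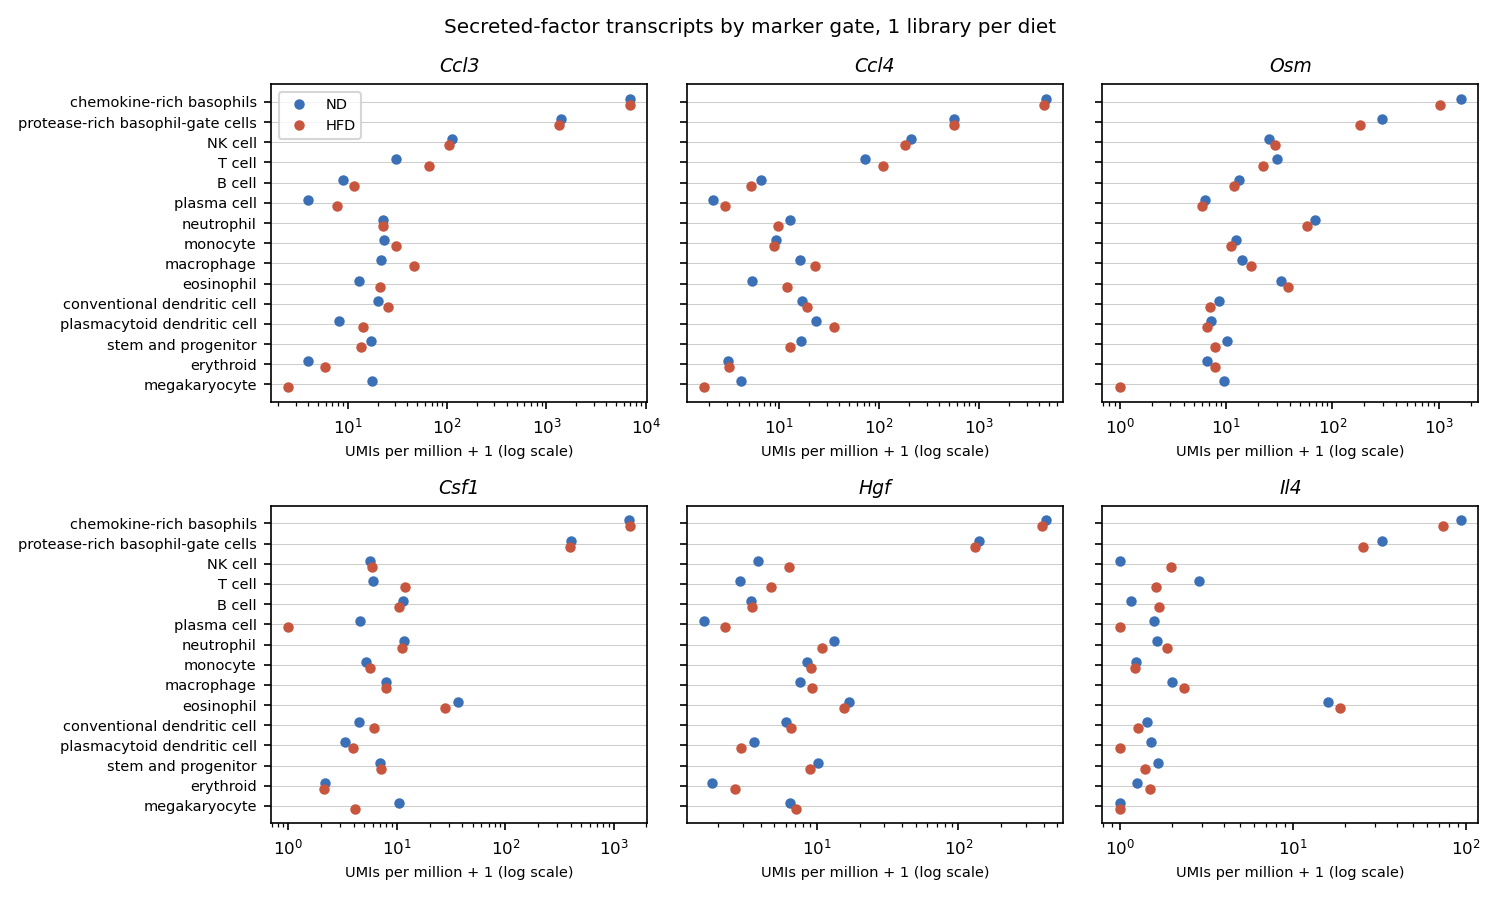
Level of 6 secreted factors in 15 cell populations, as CPM of summed UMIs plus 1 on a log axis, in the ND and HFD libraries. Populations outside the basophil gate are marker gates that can share cells. For Ccl3, Ccl4, Osm, Csf1, Hgf and Il4 the chemokine-rich basophils have the highest CPM in both libraries, with protease-rich basophil-gate cells second.

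Against the protease-rich cells, the chemokine-rich basophils were at least 1.5-fold higher in both libraries for 1031 of 7390 genes with enough UMIs (14%) and at least 1.5-fold lower for 1472 (19.9%). Because the rule split the cells on this contrast, and the protease-rich cells were deeper, the following values are descriptive. Both kinds of cell include those rich in another class here. In cells thinned to 1000 UMIs, where fewer genes reached the minimum, 364 were higher and 258 lower. Cd7, a surface receptor of the immunoglobulin family, was at 1046 CPM in ND and 993 CPM in HFD beside 45.1 and 46.3 CPM, log2 ratios of 4.54 and 4.42. Ccl6 had ratios of 4.21 and 3.96, and the complement receptor C3ar1 3.31 and 3.55. The metalloprotease Adam8 had 3.36 and 3.28, and the inflammasome sensor Nlrp3 3.36 and 3.13. Il7r, the interleukin 7 receptor alpha chain, had 3.06 and 3.18, and the chemokine receptor Cxcr2 2.88 and 2.99. Zfp36, which binds and destabilises cytokine mRNAs, reached 4128 and 3578 CPM beside 497 and 486 CPM. At the other end, Prss34 had log2 ratios of -4.14 and -3.98 and Mcpt8 -3.17 and -3.39. The actin-severing protein Scin had -3.67 and -3.40, and the cell cycle repressor E2f7 -2.77 and -3.28.

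Gene lists showed where this contrast lay. Of the migration and adhesion list 19 of 23 measured genes were higher and 2 lower, and of the basophil identity list 14 of 22 were higher and 1 lower. Of the IgE signalling list 15 of 28 were higher and 0 lower, while Ms4a2 had log2 ratios of -0.28 and -0.18 and Fcer1a -0.29 and -0.50. Immediate early genes, which respond to stimulation within minutes to hours, were higher in 15 of 25 and lower in 1. All 18 measured G2/M genes and all 15 measured S phase genes were lower, as were 10 of 13 progenitor genes and 7 of 15 cholesterol synthesis genes. These counts stand beside the 14% and 19.9% over all genes. Genes entered on UMIs summed over both populations, so genes low in the chemokine-rich cells could enter through the deeper protease-rich cells, and the counts of lower genes are no support for a difference.

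The contrast also ran within the gate, unevenly across genes. After cells rich in another class were left out, gate cells were ordered by the share of Ccl3, Ccl4 and Osm in the sum of chemokine and protease UMIs and divided into 5 bins of equal width. From the first to the last bin, Mcpt8 went from 27174 to 1610 CPM in ND and from 28314 to 1412 CPM in HFD. The proliferation gene Mki67 went from 551 to 21.0 CPM in ND and from 551 to 19.0 CPM in HFD. Mpo, the myeloperoxidase of early myeloid cells, was at 2016 CPM in the first ND bin and 33.4 CPM in the second. In the other direction, Itga2, the integrin alpha chain CD49b used to mark basophils, went from 61.8 to 267 CPM in ND and from 59.9 to 276 CPM in HFD. Ccr2, a chemokine receptor for exit from the marrow, went from 93.2 to 661 CPM and from 99.8 to 697 CPM. Il18r1, a receptor chain for interleukin 18, went from 87.5 to 521 CPM and from 97.2 to 561 CPM. Gata2 went from 2417 to 4292 CPM in ND and from 2298 to 3558 CPM in HFD. Much of these rises lay between the first and second bins. In the second bin Itga2 was already at 222 CPM in ND and 204 CPM in HFD, and Ccr2 at 547 and 579 CPM. Il18r1 was there at 361 and 484 CPM, and Gata2 at 3731 and 3538 CPM. Mcpt8, by contrast, fell from each bin to the next in both libraries. The bins also differed in depth, with medians going from 8736 to 2589.5 UMIs in ND and from 8444.5 to 2628 in HFD. The part of depth in these differences between bins was not tested.

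**Figure D3:**
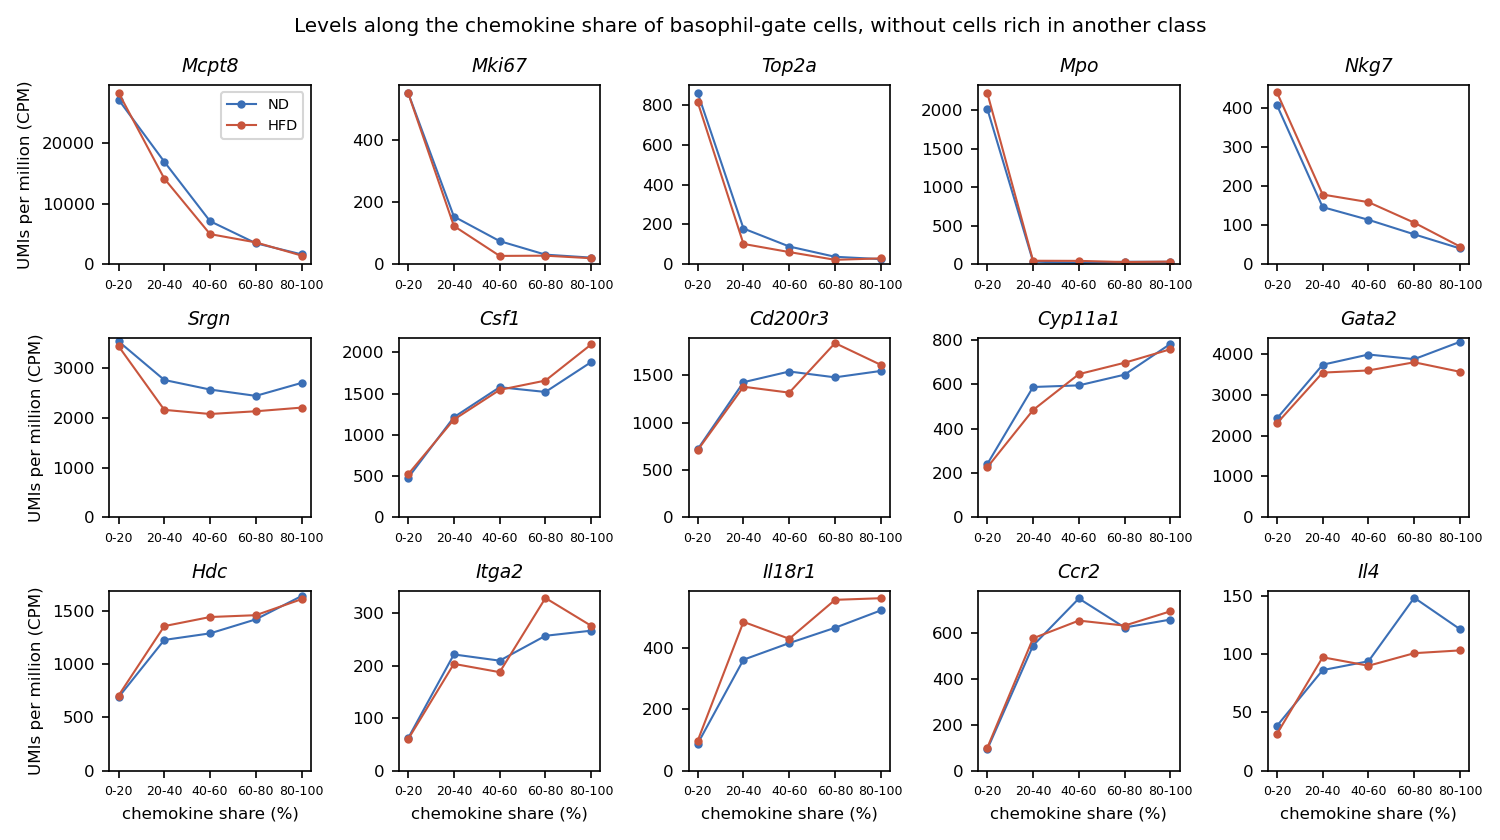
CPM of 15 genes in 5 bins of basophil-gate cells ordered by the chemokine share of chemokine and protease UMIs, without cells rich in another class, for the ND and HFD libraries. Mcpt8, Mki67 and Mpo are highest in the first bin, and Itga2, Ccr2 and Il18r1 are lowest in the first bin, in both libraries.

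Antibody tags gave a readout that the rule did not use. The tag for CD16 and CD32, the low-affinity receptors for IgG encoded by Fcgr3 and Fcgr2b, had a median of 127 molecules per chemokine-rich basophil in ND (quartiles 64 and 266) and 80.5 in HFD (48 and 183). Protease-rich cells had medians of 88 and 47, eosinophil-gate cells 63.5 and 41, and neutrophil-gate cells 32 and 19. Without cells rich in another class the medians were 129.5 and 81 in chemokine-rich and 106 and 60 in protease-rich cells. The chemokine-rich cells were thus the highest of these populations in both libraries, with ranges that overlapped. Over the 5 bins the median was higher in the last than in the first but did not rise steadily. It was 101.5, 128.5, 153, 132 and 129 in ND and 60, 57, 72, 87.5 and 81 in HFD. At the RNA level Fcgr3 stood at 380 and 432 CPM, beside 287 and 270 CPM in protease-rich cells. The HFD library held 1308386 tag molecules in all and the ND library 2073137, so tag levels are not compared between diets.

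The tag for CD117, the stem cell factor receptor Kit of progenitors and mast cells, went the other way. At least 1 molecule was found in 36.9% of ND and 31.1% of HFD chemokine-rich cells and in 63.2% and 60.5% of protease-rich cells. Without cells rich in another class the shares were 33.6% and 26.2% against 55.8% and 52.3%. Cells of the B and T cell marker gates, most of which should lack it, had 43.7% and 36.7% in ND and 37.6% and 34.7% in HFD. The share in chemokine-rich cells was therefore at the level of this background. Kit transcripts were found in 3.97% and 3.34% of chemokine-rich cells and 26.7% and 26.2% of the deeper protease-rich cells.

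**Figure D4:**
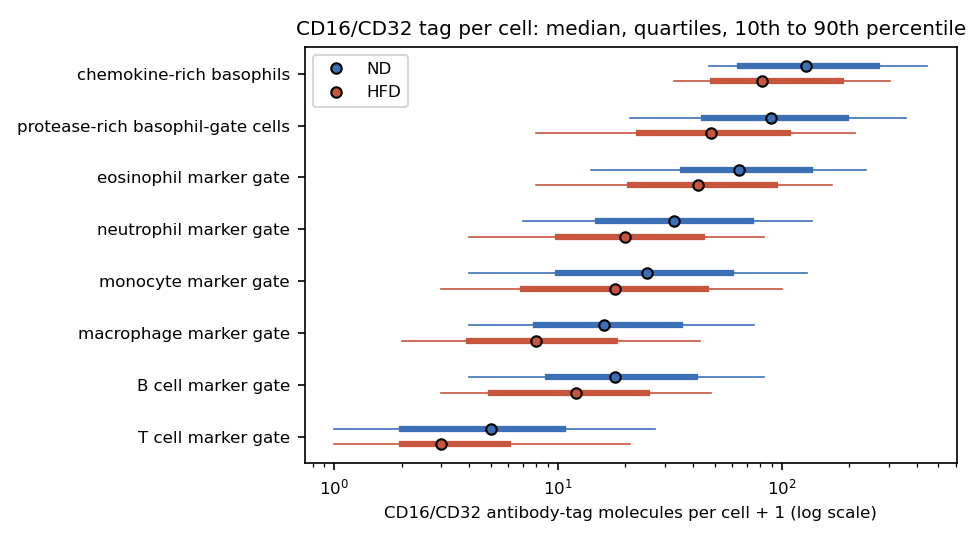
Molecules of the CD16 and CD32 antibody tag per cell plus 1, on a log axis, in each population of the ND and HFD libraries, with points at medians, thick bars at quartiles and thin bars from the 10th to the 90th percentile. Chemokine-rich basophils have the highest medians shown, 127 in ND and 80.5 in HFD.

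The share of these cells was lower in the HFD library. In ND they made up 4.93% of cells (interval 4.58 to 5.30), and in HFD 4.01% (3.71 to 4.33). The ratio of these shares was 0.814 (0.730 to 0.908). Protease-rich cells were 8.25% and 8.45%, a ratio of 1.02 (0.946 to 1.11). Within the gate the chemokine-rich cells were 37.4% and 32.2%, a ratio of 0.861 (0.772 to 0.960), while the whole gate made up 13.2% and 12.5% of cells. Osm is part of the rule and was lower in HFD, as given below, and its part in this ratio was not tested.

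Few genes differed between the diets in these cells. Among 6095 genes with at least 100 UMIs over both libraries, 125 were at least 1.5-fold higher in HFD (2.05%) and 79 at least 1.5-fold lower (1.3%). Without the cells rich in another class, 79 of 4583 were higher (1.72%) and 43 lower (0.938%). After thinning to 1000 UMIs per cell, 46 were higher and 36 lower of 2330. The factors that set the cells apart were close to equal: the log2 ratio of HFD to ND was 0.01 for Ccl3 (-0.02 to 0.04), -0.05 for Ccl4 and 0.04 for Csf1, and 0.06, 0.01 and 0.12 without those cells. Cd200r3 was at 0.00 and Cyp11a1 at -0.07. All of these genes except Csf1 are part of the rule, so their ratios are description.

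Of the immediate early genes, 5 were lower in HFD, among them Egr1, Egr2 and Dusp5. Egr1, a zinc finger transcription factor induced by ERK signalling, had 8013 UMIs in ND (3098 CPM) and 3805 in HFD (1617 CPM), a log2 ratio of -0.94 (-0.99 to -0.88). Its median was 9 UMIs per ND cell (quartiles 2 and 18) and 4 per HFD cell (0 and 10), and it was found in 81.8% and 65.6% of cells. The ratio was -0.87 without cells rich in another class, -1.02 in protease-rich cells and -0.07 in cells outside the gate. The difference was thus seen in both kinds of gate cell and was near 0 in the pooled cells outside the gate. Values outside the gate pool many cell classes, whose single ratios are not given here.

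Egr2, its close relative, had 122 and 29 UMIs, a ratio of -1.94 (-2.57 to -1.34), and -1.94 without cells rich in another class, and was found in 8.51% and 2.23% of cells. Fos, a subunit of the factor AP-1, had -0.70 in these cells, -0.78 without cells rich in another class and 0.34 outside the gate. Dusp5, a nuclear phosphatase of ERK whose promoter is shown above, went from 454 to 280 CPM, a ratio of -0.70 (-0.84 to -0.56), and -0.61 without cells rich in another class, beside -0.98 in protease-rich cells and 0.37 outside the gate. The NF-kB regulator Nfkbid had -0.70, and -0.62 without those cells. Other genes of the list had smaller or opposite ratios: Jun had -0.29, Zfp36 -0.21, Nfkbia 0.24 and Klf6 0.21. Over the list, 0 of 33 genes with at least 20 UMIs were higher and 5 lower, with a median log2 ratio of -0.26. Over all 9765 genes with at least 20 UMIs, 6.54% were higher and 4.82% lower, with a median of 0.03. Without cells rich in another class the list gave 1 higher and 7 lower of 31, median -0.28, beside 7.04% and 5.2% of 8253 genes.

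Osm was lower in HFD among the abundant secreted factors. It went from 1630 CPM in ND to 1022 CPM in HFD, a log2 ratio of -0.67 (-0.75 to -0.60). The median was 4 UMIs per ND cell (quartiles 1 and 8) and 3 per HFD cell (1 and 5.25), and in cells thinned to 1000 UMIs it was found in 67.1% and 58.3%. The ratio was -0.63 without cells rich in another class, -0.68 in protease-rich cells and 0.14 outside the gate. Ccl9 had -0.36 (-0.41 to -0.32), Il6 -0.49 and Il4 -0.35, below 1.5-fold in each case, and -0.30, -0.40 and -0.26 without those cells. Factors at low counts had larger ratios: Ccl5 had 151 and 64 UMIs, with 96.0% and 100% of them in 10 cells, Cxcl2 had 47 and 12, and Tnf had 39 and 14. The cytokine list gave 1 gene higher and 4 lower of 13, median -0.49, and 1 and 3 of 9, median -0.26, without cells rich in another class. The chemokine list gave 0 higher and 2 lower of 6 in both cases, medians -0.21 and -0.15. Both lists are short, and stand beside 6.54% higher and 4.82% lower over all genes with at least 20 UMIs. Without cells rich in another class those shares were 7.04% and 5.2%.

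Several single genes were also lower in HFD. Id1, an inhibitor of helix-loop-helix factors, went from 247 to 146 CPM and from 43.0% to 28.7% of cells, a log2 ratio of -0.76 (-0.95 to -0.57), and -0.76 without cells rich in another class, with -0.29 in protease-rich cells and 0.21 outside the gate. The cholesterol synthesis list had 0 higher and 5 lower of 20, median -0.28, and 0 and 2 of 10, median -0.24, without those cells, beside 6.54% and 4.82% of all genes with them and 7.04% and 5.2% without. Cirbp, a cold-inducible RNA-binding protein, had -0.82 and the linker histone H1f0 -0.80, then -0.72 and -0.61 without those cells, beside -0.58 and -0.71 outside the gate. The survival factor Bcl2 and the kinase Pim2 each had -0.83, and -1.31 and -0.94 without those cells. The list of survival and STAT5 targets that holds them gave 1 higher and 4 lower of 17 in both cases, medians -0.39 and -0.30. Gzmb, granzyme B, went from 108 to 30 UMIs, a ratio of -1.71 and -1.82 without those cells, with 63.9% of its ND UMIs in 10 cells.

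Of 26 interferon-induced genes 8 were higher in the HFD cells, at low counts. Isg15, a ubiquitin-like modifier, had 34 UMIs in ND and 79 in HFD, a log2 ratio of 1.35 (0.76 to 1.98), and 0.64 (-0.13 to 1.43) without cells rich in another class. Ifit1, which binds foreign RNA, had 27 and 62 UMIs, and Rtp4 22 and 65, log2 ratios of 1.34 and 1.70, and 1.12 and 1.60 without those cells. The 10 cells with most Ifit1 UMIs held 100% of them in ND and 91.9% in HFD. Irf9, the DNA-binding part of the interferon-activated factor ISGF3, was found in 19.4% and 26.1% of cells, a ratio of 0.50, and 0.43 without those cells. The list gave 8 higher and 0 lower of 26, median 0.29, and 7 and 1 of 24, median 0.34, without cells rich in another class. Over all genes with at least 20 UMIs, 6.54% were higher and 4.82% lower, and 7.04% and 5.2% without those cells. Isg15 had 1.18 outside the gate, so its level was higher in HFD there too.

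A minority of the fatty acid and glucocorticoid lists were higher in HFD. Plin2, which coats lipid droplets, went from 40.2 to 67.6 CPM and from 12.2% to 21.5% of cells, a log2 ratio of 0.75 (0.38 to 1.12), and 0.77 without cells rich in another class, with 0.60 in protease-rich cells and 0.63 outside the gate. Slc25a20, the mitochondrial carrier of acylcarnitines, had 0.62, and Cpt1a, which forms acylcarnitines for import, had 0.37 (0.21 to 0.52), then 0.75 and 0.46 without those cells. Fabp5, a fatty acid binding protein, had -0.50, and -0.54 without those cells. The fatty acid list gave 5 higher and 0 lower of 25, median 0.14, and 3 and 1 of 22, median 0.06, without those cells. The shares over all genes were 6.54% and 4.82% with those cells, median 0.03, and 7.04% and 5.2% without, median 0.04. Tsc22d3, a glucocorticoid-induced regulator, went from 45.2 to 76.9 CPM and from 12.9% to 21.0% of cells, a ratio of 0.77 (0.42 to 1.11), and 0.99 without those cells, with 0.17 in protease-rich cells and 0.38 outside the gate. The glucocorticoid list gave 4 higher and 0 lower of 12, median 0.27, and 4 and 1 of 11, median 0.24, without those cells. C5ar1, the receptor of complement C5a, was found in 36.3% and 47.5% of cells, a ratio of 0.48, and had 0.65 without those cells and 0.73 outside the gate.

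**Figure D5:**
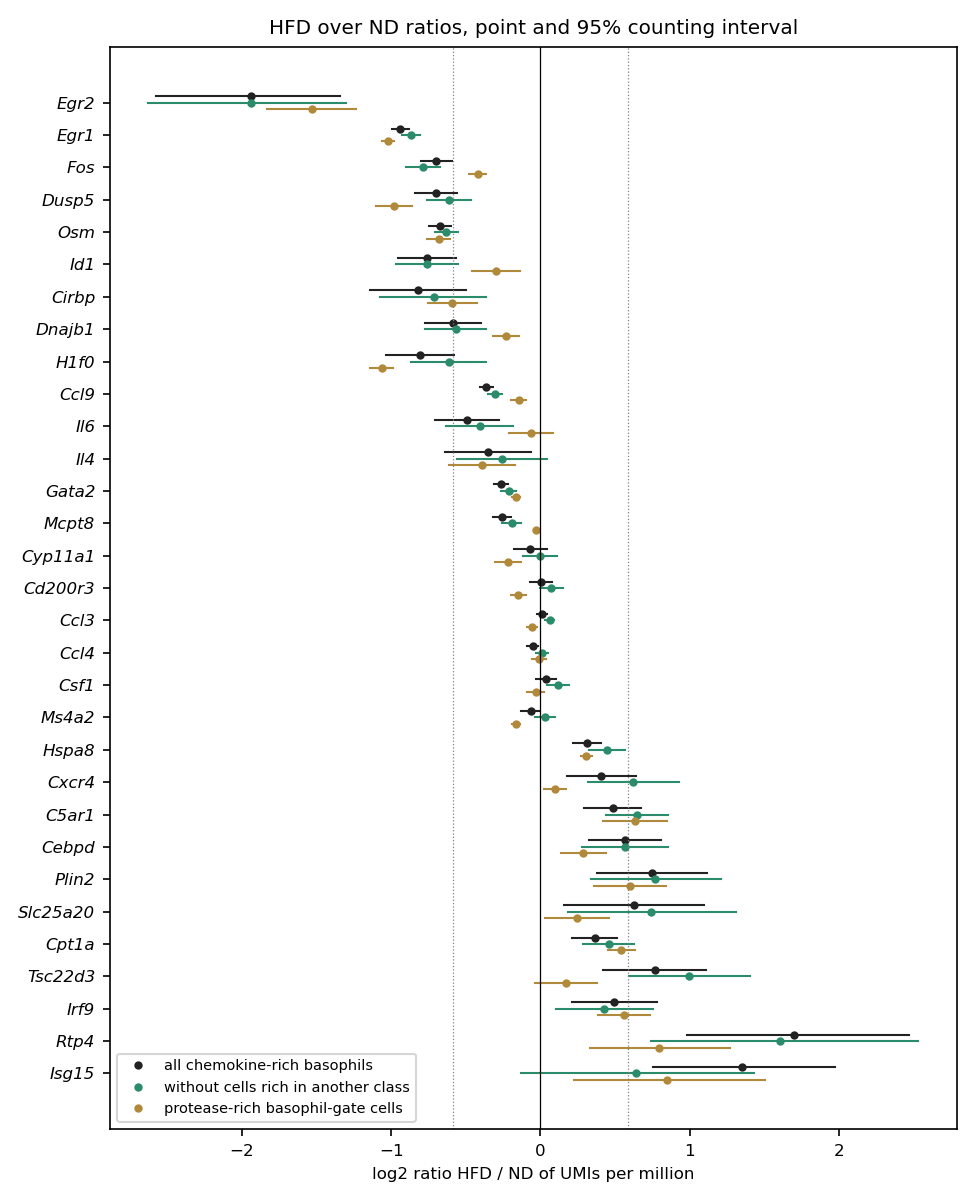
Log2 ratio of HFD to ND summed CPM, with 95% counting intervals, for 31 genes in all chemokine-rich basophils (black), in those without cells rich in another class (green) and in protease-rich basophil-gate cells (ochre). Dotted lines mark 1.5-fold, and Egr1 (-0.94), Egr2 (-1.94) and Osm (-0.67) lie beyond the lower line in all chemokine-rich basophils while Ccl3 (0.01) lies at 0.

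Lists of basophil function had counts near those of all genes, at 6.54% higher and 4.82% lower. The IgE signalling list had 0 higher and 0 lower of 29, median 0.00, and 1 and 0 of 29, median 0.01, without cells rich in another class. The 7 gate genes had 0 and 0 in both cases, medians -0.07 and 0.00. Cells were chosen on these 7 genes, so their ratios are description and no support for equal levels. The basophil identity list had 1 higher and 0 lower of 23, median 0.02, and 0 and 0 of 22, median 0.03, without those cells. The migration and adhesion list had 0 and 1 of 26, median -0.05, and 2 and 0 of 24, median -0.01, without them. Gata2 and Mcpt8 each had a log2 ratio of -0.26, and -0.21 and -0.19 without those cells, all under 1.5-fold.

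The highest ratios of all came from few cells. The eosinophil granule genes Prg2 and Epx had 1380 and 58 UMIs in ND and 6561 and 409 in HFD, log2 ratios of 2.39 and 2.95, with 99.1% and 100% of the HFD UMIs in 10 cells. Without cells rich in another class they had 58 and 3 UMIs in ND and 76 and 6 in HFD. Jchain, the joining chain of secreted antibodies, went from 133 to 892 UMIs, with 99.9% of the HFD UMIs in 10 cells, and had 22 and 8 without cells rich in another class. The heat shock gene Hspa1a had 1 UMI in ND and 68 in HFD, with 86.8% of the latter in 10 cells, and its log2 ratio outside the gate was 3.70. The G2/M list gave 8 higher and 0 lower of 18, median 0.55, beside 6.54% and 4.82% over all genes with at least 20 UMIs. Only 4 of its genes reached 20 UMIs without cells rich in another class.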

How the data were processed

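Bone marrow cells were captured on the BD Rhapsody system, and the authors deposited 1 table of UMI counts per cell and gene for each diet, which per the file headers came from version 1.9.1 of the BD WTA Rhapsody Analysis Pipeline. Their genome build is not given in the sources used here. The deposited counts are error-corrected molecules, with 5 antibody tags in the same tables. They held 16817 ND and 17282 HFD cells with 117999042 and 117773643 UMIs, medians of 3644 and 3625 per cell, and 20478 shared gene symbols of 24014.

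Counts were summed over cells and scaled to CPM. Log2 ratios of HFD to ND carry exact conditional binomial intervals, a count of 0 being set to 3, and shares carry Clopper-Pearson intervals, both at 95% and for counting error only. A gene was counted as higher or lower past 1.5-fold with at least 100 UMIs over both libraries, or 20 for gene lists and 200 for contrasts between populations. No count model was used, because each diet has 1 library. Doublets were marked with Scrublet (scanpy 1.11.5) in 412 ND and 436 HFD cells and were kept. Cells outside the basophil gate entered the marker gate of any of 14 classes of which they had at least 3 markers. A cell could therefore be in more than 1 marker gate. Scripts used Python 3.11.15, numpy 2.4.6, scipy 1.17.1 and pandas 2.3.3, and were tested on simulated data.

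The cells and the 23 gene lists were chosen with earlier results of these data known. Named genes were the gate genes and markers, the 10 highest and 10 lowest ratios of HFD to ND, up to 4 genes of each list by size of ratio, and the 15 highest and 15 lowest against other populations. Other genes named were chosen after their values were seen. 11 list genes were absent from both tables. Alternatives changed the cell filters, the gate, the chemokine condition, doublets, cells rich in another class, thinning, the minimum of UMIs and the fold.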

Additional observations from a re-analysis of the deposited data

How the results depend on the processing

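The share of chemokine-rich basophils moved with their definition, from 4.93% of ND and 4.01% of HFD cells to 4.20% and 3.66% of all deposited cells, 5.94% and 5.03% with at least 2 gate genes, 4.29% and 3.36% with proteases at most 1 for 2 chemokine UMIs, 5.54% and 4.68% at most 2 times, and 4.29% and 3.42% without cells rich in another class. The ratio between the libraries, 0.814, ranged from 0.783 with proteases at most 1 for 2 chemokine UMIs to 0.871 in all deposited cells, within the counting interval of 0.730 to 0.908.

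The 125 genes higher in HFD became 228 with proteases at most 2 times the chemokines, 213 without Scrublet doublets, 79 without cells rich in another class, 46 after thinning, 639 from 20 UMIs, 19 from 300 UMIs and 18 at 2-fold. The 79 genes lower became 124 with at least 2 gate genes, 43 without cells rich in another class, 36 after thinning, 471 from 20 UMIs, 16 from 300 UMIs and 11 at 2-fold. Against protease-rich cells, 2252 genes were lower without cells rich in another class, and 364 were higher and 258 lower after thinning, where fewer genes reached 200 UMIs.

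The interferon median was 0.46 with at least 4 gate genes. The cytokine median was -0.30 without Scrublet doublets, -0.26 without cells rich in another class, -0.27 as a mean over cells and -0.077 from 100 UMIs. The heat shock median was 0.44 without Scrublet doublets, and the chemokine median -0.051 from 100 UMIs.

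Log2 ratios of HFD to ND that changed sign were those of Epx (-0.35) and Ear1 (-0.60) with at least 4 gate genes, and of Jchain (-0.92), Car1 (-0.69), Ccl5 (0.45) and Mt2 (-0.67) with at least 2. With proteases at most 1 for 2 chemokine UMIs they were Ear1 (-0.52) and Ear6 (-0.091). Without cells rich in another class they were Jchain (-1.25), Fcnb (-0.20), Ear6 (-0.11), Aurkb (-0.47), Prtn3 (-0.044) and Elane (-0.077). As a mean over those cells, an alternative chosen after seeing the data, they were Jchain (-0.76), Cd24a (0.039), Aurkb (-0.26), Elane (-0.15) and Mt2 (-0.64). The cause was not tested. Egr1, Egr2, Osm, Cirbp, H1f0, Id1 and Plin2 kept their direction and stayed past 1.5-fold under all 14 alternatives.

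No paired analysis was possible because each diet has 1 library. Leaving out a library ends the comparison. Genes of few UMIs, such as Isg15 and Rtp4, have wide counting intervals.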
